A study of Mus musculus with 6 samples.

Results

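Podocytes are the cells that wrap the capillaries of the glomerulus and hold back protein as blood is filtered. Their interlocking foot processes are bridged by the slit diaphragm, a junction built on nephrin, and are kept in shape by an actin cytoskeleton that is tied to that junction through adaptor proteins. Loss of these proteins is known from inherited kidney disease, in which protein leaks into the urine.

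The genes described here were 8 of this machinery: Nphs1, Cd2ap, Magi2 and Plce1 of the slit diaphragm and its attached scaffold and signalling proteins, Podxl of the podocyte surface, Synpo and Actn4 of the actin cytoskeleton, and Wt1, a transcription factor of the podocyte nucleus. Every probe whose gene name in the array files was 1 of these was taken, which gave 26 of 56605 non-control probes, for 8 of 36870 named genes. Of these, 22 probes were tested, being well above background on at least 3 of 6 arrays, among 39924 such probes in all, and each of the 8 genes had at least 1 tested probe. The podocyte marker Wt1 was well above background in all 3 MRL and all 3 LPR mice. The 4 member probes that were not tested, 2 of Plce1, 1 of Magi2 and 1 of Podxl, were not well above background on any array.

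The arrays held total RNA of whole kidney from 3 MRL/MpJ (MRL) mice and 3 MRL/MpJ-Fas lpr/lpr (LPR) mice, all female and 6 months of age, kept specific pathogen-free and given no treatment that the labels name. MRL and LPR share the MRL/MpJ background, and LPR mice carry the lpr allele of Fas, a death receptor of lymphocytes, in every cell and develop a lupus-like nephritis. The comparison asks whether podocyte transcripts differed in the diseased kidney. Because podocytes are a small part of a whole kidney, fewer podocytes and less RNA per podocyte cannot be told apart in these data.

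All values are log2 levels relative to the 75th percentile of the same array, and a change is LPR minus MRL on that log2 scale. Correlations between arrays were 0.992 to 0.993 within MRL, 0.990 to 0.993 within LPR and 0.961 to 0.971 between the groups, and the median change over all tested probes was -0.14, so a gene near that value moved as most probes did. The lpr allele is a retroelement insertion within an intron of Fas, and since the Fas probes were not placed relative to it, these arrays do not check the allele. A Fas probe at chr19:34402164-34402223 (mm9) differed by -0.47 (adjusted p = 0.234, limma). A second Fas probe, at chr19:34383733-34383792, was not well above background in any MRL mouse and, in the LPR mice, at least 1.47-fold higher, the bound being taken against the lowest signal well above background on each MRL array. That probe entered the fit through the LPR arrays alone, so no p is given for it.

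The probe sequences that carry the differences described below are printed as the array files give them, with positions in the files' mm9 build. No annotation of that build was used, so their exons and untranslated regions are not stated. The brighter Nphs1 probe (A_51_P496741) is shown because it held the largest upward estimate among the members. Its 60 bases were placed over 220 bases at chr7:31266833-31267052 on the plus strand, so it spans at least 1 gap in the genome. The second Nphs1 probe (A_55_P1996479, chr7:31273569-31273628) is shown by its last 30 bases because it started 6736 bases further along and its estimate had the opposite sign. The Magi2 probe (A_51_P386182, chr5:20208674-20208733, plus strand) is shown by its first 30 bases because it was the member probe that passed the test. The Cd2ap probe (A_66_P111568, chr17:42962800-42962859, minus strand) is shown because all 3 LPR mice lay below all 3 MRL mice on it. Capitals mark the polyadenylation hexamer AATAAA, searched on the printed strand only.
Nphs1 A_51_P496741: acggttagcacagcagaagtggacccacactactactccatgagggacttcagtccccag
Nphs1 A_55_P1996479, last 30 bases: gtgtatgccacacaaAATAAAtaaaatgta
Magi2 A_51_P386182, first 30 bases: cagctacggaagaaccaaaatcacgcaaac
Cd2ap A_66_P111568: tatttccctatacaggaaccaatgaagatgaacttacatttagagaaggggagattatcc

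AATAAA occurred in 2 of the 26 member probes, 1 of Nphs1 and 1 of Actn4, and in 9.77% of all 56605 probes. In the Nphs1 probe a second copy overlaps the first.

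No difference between MRL and LPR kidney was detected for most podocyte genes of the set, with 3 mice per group. Of the 22 tested member probes, 0 were higher and 1 was lower in LPR kidney (limma, adjusted p below 0.05), against 6.53% higher and 6.17% lower of all tested probes. By the brightest tested probe of each gene, 0 of 8 genes were higher and 1 of 8, Magi2, was lower, against 7.12% and 5.47% of 25805 genes. At an unadjusted p under 0.05 there were 2 of 8 genes, Nphs1 and Magi2, against 29.4% of all genes, and 4 of 22 probes, against 30.4% of all probes. Those 4 were the brighter Nphs1 probe, the Magi2 probes A_51_P386182 and A_55_P2934891, and the Cd2ap probe A_66_P111568. The groups did not overlap on 1 tested member probe with LPR above MRL, against 11% of all probes, and on 2 with LPR below, against 26.9%. The median change was -0.09 over the 8 genes and -0.15 over the 22 probes, beside -0.12 over all genes and -0.14 over all probes. For 6 of 8 genes the 95% interval of the change lay within 2-fold in both directions, as it did for 81% of all genes. The exceptions were Nphs1, whose interval reached a 2.29-fold rise, and Cd2ap, whose interval reached a 3.18-fold fall.

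**Figure D1:**
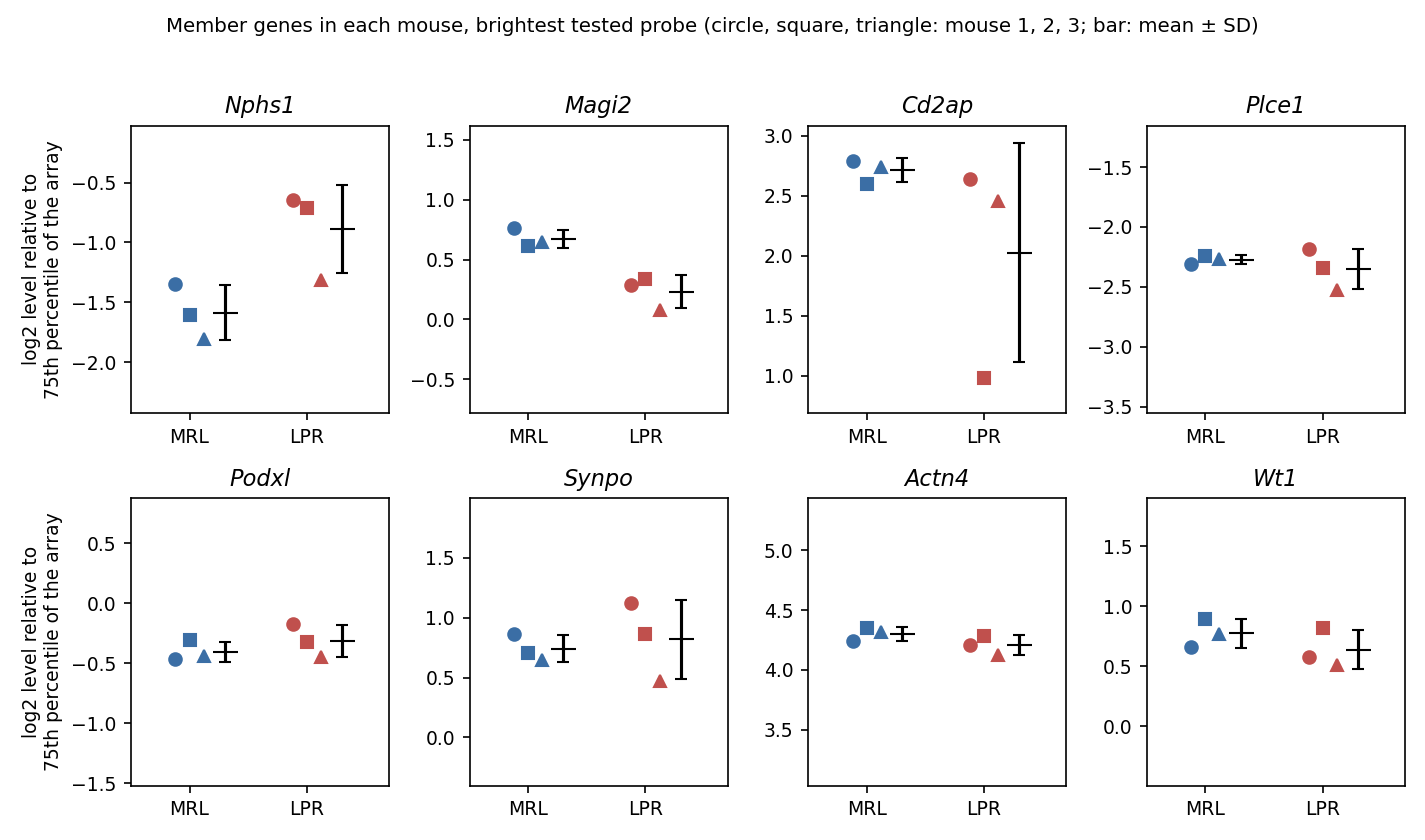
Log2 level of each member gene, by its brightest tested probe, relative to the 75th percentile of the array, in 3 MRL mice (blue) and 3 LPR mice (red), with circles, squares and triangles for mice 1, 2 and 3 and the bar giving mean ± SD. The groups do not overlap for Nphs1 and Magi2, and LPR 2 stands at 0.98 for Cd2ap while the other 5 mice lie between 2.46 and 2.79. Every panel spans the same range on the log2 scale, so heights can be compared between panels but positions cannot.

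Nphs1 encodes nephrin, the adhesion protein that forms the slit diaphragm itself. On its brighter probe (A_51_P496741, NM_019459) the levels were -1.35, -1.60 and -1.81 in MRL 1, 2 and 3 and -0.64, -0.72 and -1.31 in LPR 1, 2 and 3. Each LPR mouse lay above each MRL mouse, with LPR 3 only just above MRL 1. The mean was -1.58 ± 0.23 in MRL and -0.89 ± 0.37 in LPR mice (SD, n = 3 each), a difference of 0.69 (SE 0.21, 1.62-fold) with a 95% interval of 0.19 to 1.19. This did not pass the test across all probes (adjusted p = 0.0780, limma). Groups apart in this direction were found for 11.7% of all genes. The difference passed in 4 of 23 alternatives and not in the other 19. Without LPR 3, the lowest LPR mouse, it was 0.90 and passed (adjusted p = 0.0312, limma). It also passed with a normexp background (0.57, adjusted p = 0.0294, limma), an intensity trend (0.69, adjusted p = 0.0380, limma) and mouse number as a block (0.69, adjusted p = 0.0427, limma). The adjusted p was 0.0991, 0.175 and 0.198 without MRL 1, 2 and 3, and 0.173 and 0.160 without LPR 1 and 2 (limma).

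The second Nphs1 probe (A_55_P1996479) gave -5.81, -5.68 and -5.89 in the MRL mice and -6.07, -6.51 and -5.74 in the LPR mice. The groups overlapped, and the probe was well above background in 1 of 3 MRL and 2 of 3 LPR mice. Its difference was -0.32 (SE 0.20, adjusted p = 0.320, limma). The brighter minus the dimmer probe, taken within each array, was 4.08 to 4.46 in MRL and 4.43 to 5.79 in LPR mice, so the change differed by 1.01 between the probes while the groups overlapped, and that difference was not tested. When both probes were averaged, the Nphs1 difference was 0.19 (adjusted p = 0.326, limma).

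Magi2 encodes a scaffold protein that binds nephrin from the inside of the cell and is made in neurons as well. On the probe A_51_P386182 (NM_001170746) the levels were 0.76, 0.61 and 0.65 in MRL 1, 2 and 3 and 0.29, 0.33 and 0.08 in LPR 1, 2 and 3. Every LPR mouse lay below every MRL mouse, as was so for 25.6% of all genes. Magi2 was 0.67 ± 0.08 in MRL and 0.23 ± 0.14 in LPR mice (SD, n = 3 each), and it fell by 0.44 (SE 0.11, 1.36-fold, 95% interval -0.71 to -0.17), or by 0.31 relative to the median probe. The adjusted p was 0.0500 (limma), which rounds up from just under the threshold. The call was lost in 17 of 23 processing alternatives while the difference stayed between -0.49 and -0.33. The adjusted p was 0.137, 0.118 and 0.126 without MRL 1, 2 and 3, and 0.0842, 0.0526 and 0.142 without LPR 1, 2 and 3 (limma).

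The other tested Magi2 probes gave estimates that ranged more widely. The probe A_55_P2730298, which lies 51237 bases from the first, was -2.62, -2.82 and -2.54 in the MRL and -3.09, -2.74 and -3.43 in the LPR mice, a difference of -0.43 (adjusted p = 0.179, limma). Its groups overlapped because LPR 2 lay above MRL 2. The other 3 tested probes, A_55_P2934891, A_66_P106750 and A_55_P2044528, differed by -0.67, -0.14 and 0.00, all with overlapping groups. The adjusted p of the first of these was 0.152 (limma). Averaged over its 5 tested probes, Magi2 differed by -0.33 (adjusted p = 0.0788, limma).

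**Figure D2:**
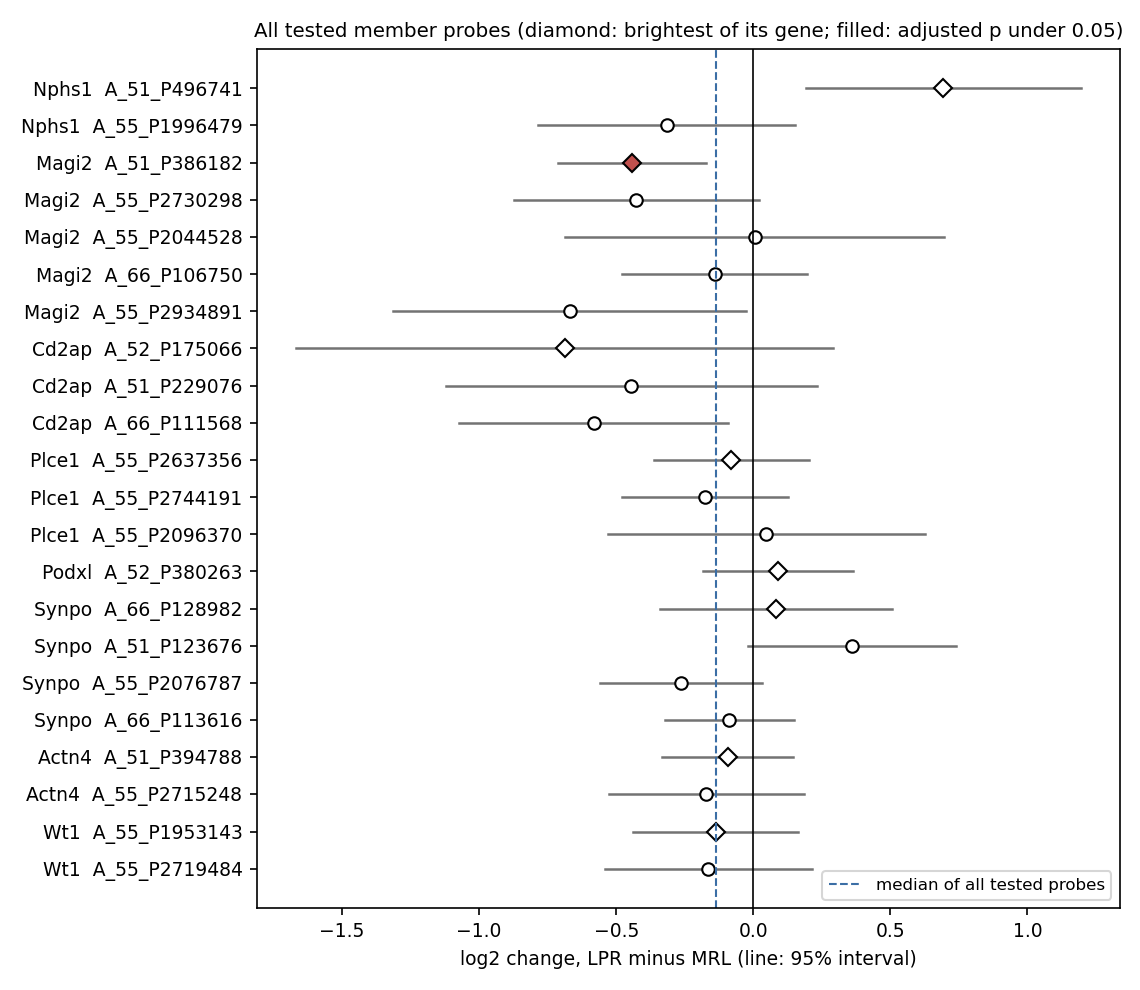
Log2 change (LPR minus MRL) of the 22 tested member probes with 95% intervals, grouped by gene with the brightest probe of each gene as a diamond, and the median of all tested probes (-0.14) as a dashed line. The filled symbol is the Magi2 probe with an adjusted p of 0.0500, and the intervals of all but 4 probes include 0.

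Cd2ap encodes an adaptor that links the slit diaphragm to actin and is widely made outside the podocyte. On its brightest probe (A_52_P175066, NM_009847) the levels were 2.79, 2.60 and 2.74 in the MRL mice and 2.64, 0.98 and 2.46 in LPR 1, 2 and 3. LPR 2 alone was low, LPR 1 lay among the MRL mice and LPR 3 just under the lowest of them. The group difference was -0.69 (SE 0.41, 95% interval -1.67 to 0.29, adjusted p = 0.303, limma), and without LPR 2 it was -0.16 (adjusted p = 0.383, limma).

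The low value of LPR 2 recurred on each of the 3 Cd2ap probes, which are separate sequences of the same transcript in the same RNA. LPR 2 lay 1.57 below the mean of LPR 1 and LPR 3 on A_52_P175066. The same gap was 1.05 on A_51_P229076 and 0.67 on A_66_P111568, which starts 32476 bases from the first. On A_66_P111568 the levels were -0.27, -0.29 and -0.23 in the MRL and -0.45, -1.29 and -0.80 in the LPR mice. All LPR mice lay below all MRL mice on this probe, as on 26.9% of all probes. The difference there was -0.58 (SE 0.21, adjusted p = 0.115, limma) and -0.36 without LPR 2. Over all genes, LPR 2 lay more than 1 below the mean of the other LPR mice for 2.16%, against 0.94% for LPR 1 and 0.83% for LPR 3.

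**Figure D3:**
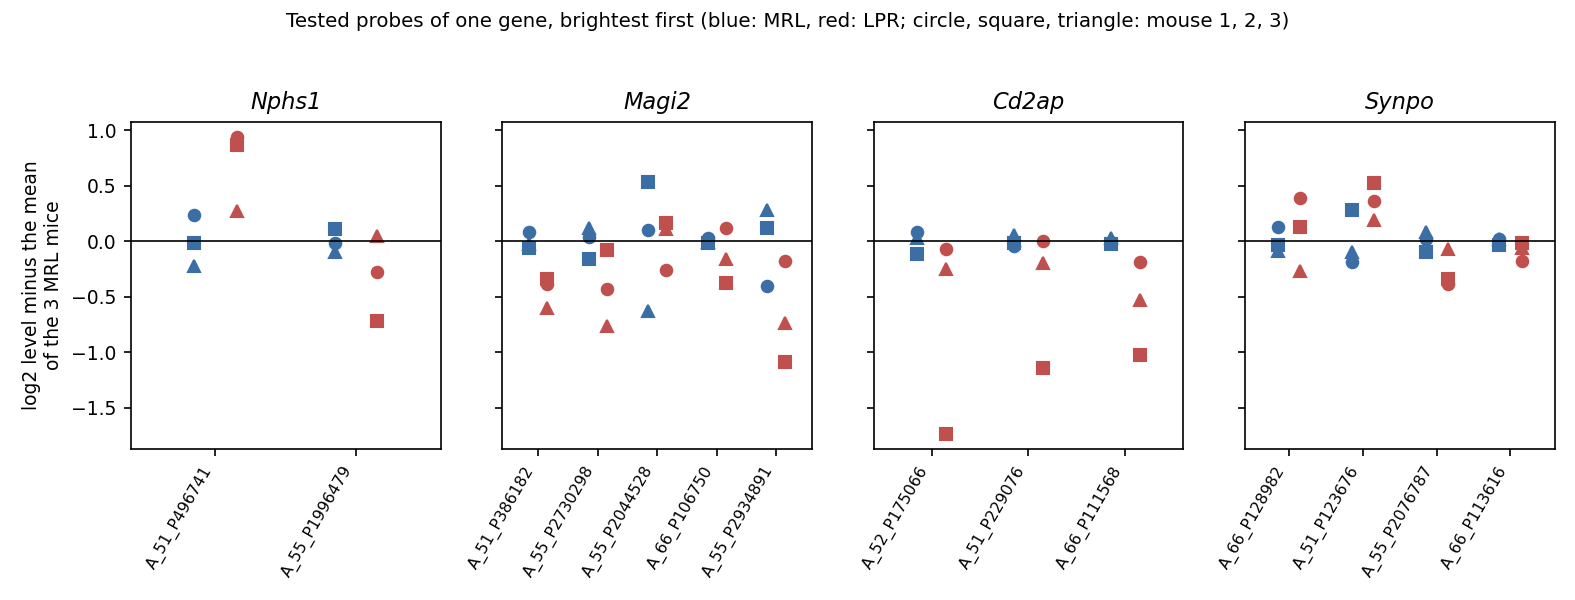
Log2 level of each mouse minus the mean of the 3 MRL mice, for every tested probe of Nphs1, Magi2, Cd2ap and Synpo, with the brightest probe of each gene at the left, MRL in blue, LPR in red and circles, squares and triangles for mice 1, 2 and 3. LPR 2 (red square) is the lowest mouse on all 3 Cd2ap probes, and the 2 Nphs1 probes have opposite signs.

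Plce1 encodes a phospholipase C that takes part in podocyte development. On its brightest probe (A_55_P2637356, NM_019588, chr19:38857801-38857860) the levels were -2.31, -2.24 and -2.26 in the MRL and -2.18, -2.35 and -2.52 in the LPR mice. The LPR mice spread on both sides of the MRL mice. The difference was -0.08 (SE 0.12, 95% interval -0.36 to 0.20, adjusted p = 0.680, limma), and the other tested probes gave -0.18 and 0.05.

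Podxl encodes podocalyxin, the charged sialoprotein of the podocyte surface that vascular endothelium also carries. Its tested probe (A_52_P380263, NM_013723, chr6:31470405-31470464) gave -0.47, -0.31 and -0.44 in the MRL and -0.17, -0.32 and -0.44 in the LPR mice. The groups overlapped, and the difference of 0.09 (SE 0.12, 95% interval -0.18 to 0.36) did not pass (adjusted p = 0.623, limma).

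Synpo encodes synaptopodin, an actin-binding protein of foot processes. On its brightest probe (A_66_P128982, chromosome 18) the levels were 0.86, 0.70 and 0.65 in the MRL and 1.13, 0.87 and 0.47 in the LPR mice. The LPR mice held both the highest and the lowest value. The difference was 0.08 (SE 0.18, 95% interval -0.34 to 0.50, adjusted p = 0.785, limma).

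The probes of different Synpo transcripts pointed in different directions, none past the threshold. The probe annotated to transcript variant A (A_51_P123676) was 0.38, 0.85 and 0.47 in the MRL and 0.93, 1.09 and 0.76 in the LPR mice, a difference of 0.36 (adjusted p = 0.181, limma). The probe annotated to variant B (A_55_P2076787) was -1.99, -2.11 and -1.93 in the MRL and -2.39, -2.35 and -2.08 in the LPR mice, a difference of -0.26 (adjusted p = 0.203, limma). The groups overlapped on both probes. A further probe annotated to both variants (A_66_P113616) differed by -0.09.

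Actn4 encodes alpha-actinin 4, which crosslinks actin filaments in podocytes and in many other cells. Its brighter probe (A_51_P394788, NM_021895, chr7:29678289-29678348) gave 4.24, 4.35 and 4.31 in the MRL and 4.21, 4.29 and 4.12 in the LPR mice. The mice lay closely together, and the interval was among the narrowest of the members. The difference was -0.09 (SE 0.10, 95% interval -0.33 to 0.15, adjusted p = 0.562, limma), and on the dimmer probe it was -0.17.

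Wt1 encodes the zinc finger factor that is required for glomerulus formation and stays on in the adult podocyte. Its brighter probe (A_55_P1953143, NM_144783, chr2:105013656-105013715) gave 0.66, 0.90 and 0.77 in the MRL and 0.58, 0.82 and 0.51 in the LPR mice. The groups overlapped. The difference was -0.14 (SE 0.13, 95% interval -0.44 to 0.16, adjusted p = 0.495, limma), equal to the median change of all probes, and the second probe gave -0.16.

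By the brightest tested probe of each gene, LPR 3 was the lowest of the LPR mice for 7 of the 8 member genes, the exception being Cd2ap. It was also the lowest for 27 of 58 other podocyte genes, and over all genes for 25.5%. Over the 22 tested member probes the pattern was weaker. There LPR 3 was the lowest on 10 and LPR 2 on 8, against 27.2% and 34.0% of all probes. The 6 arrays lay on 1 slide, with the 3 MRL mice and LPR 1 in its first row and LPR 2 and LPR 3 in its second. Within the first row, LPR 1 minus the MRL mean was 0.94 for Nphs1 and -0.39 for Magi2. Within the first column, LPR 2 minus MRL 1 was 0.63 for Nphs1 and -0.43 for Magi2, and within the second column, LPR 3 minus MRL 2 was 0.29 and -0.54. The groups did not overlap for either gene, so these differences could not have had the other sign. The second row held LPR mice only, so slide row as a block set LPR 1 alone against the MRL mice. It gave the same 0.94 for Nphs1 and -0.39 for Magi2.

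**Figure D4:**
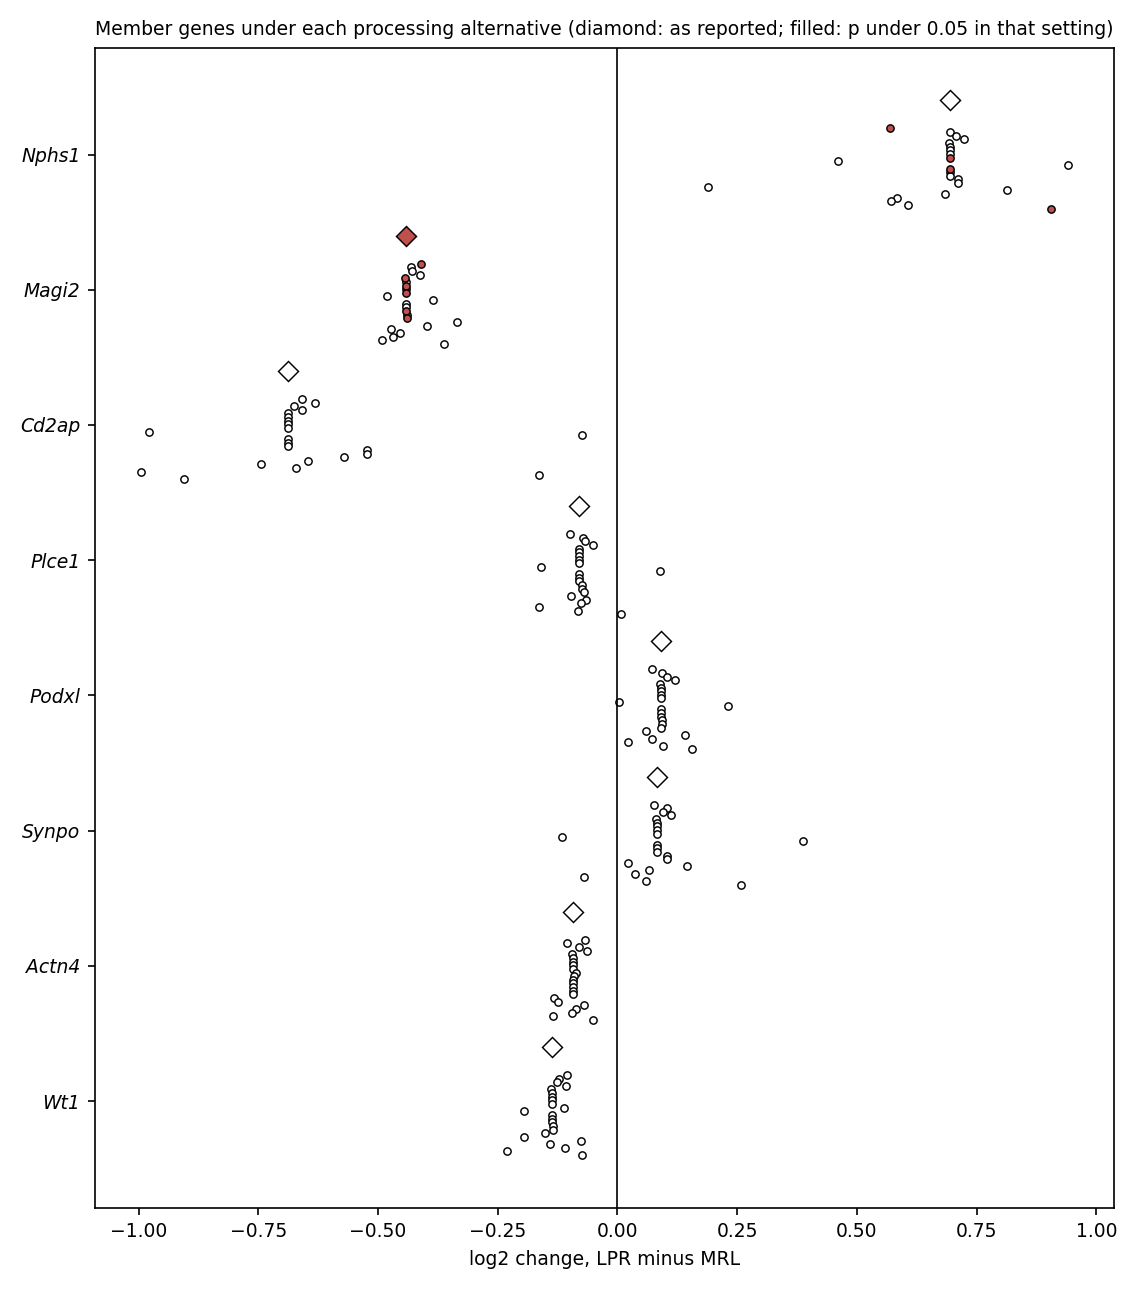
Log2 change (LPR minus MRL) of each member gene as reported (diamond) and, beneath it, under 23 processing alternatives (circles), filled where p was under 0.05 in that setting, which is an unadjusted p for the unadjusted form of the methods' t-test. Magi2 stays between -0.49 and -0.33 and Nphs1 between 0.19 and 0.94, while Cd2ap runs from -0.99 to -0.07.

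The other genes of the podocyte were taken as 58 genes in 4 lists, all of them tested. Of these, 3 were higher, 3 were lower and 52 did not pass (limma), shares no larger than the 7.12% higher and 5.47% lower of all genes. The median change was -0.03 beside -0.12 over all genes, and 12 of the 58 had an unadjusted p under 0.05, against 29.4% of all genes. Fyn and Inf2 were among the higher genes, and Enpep, Col4a3 and Dach1 were the lower ones. With slide column as a block 0 of the 58 passed in either direction. That block drew only on the columns that held both groups. Over all 39924 tested probes it gave 2075 higher and 973 lower, against 2606 and 2462 as reported. The loss of calls was therefore not particular to the podocyte genes. Slide row as a block left LPR 1 alone against the MRL mice, so its counts are not given.

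Among 13 other slit diaphragm genes 1 was higher and 0 were lower, with a median of 0.12, and 3 had an unadjusted p under 0.05. The higher gene was Fyn, a kinase that phosphorylates nephrin and is also a kinase of T cells. It rose by 0.91 (SE 0.12, adjusted p = 0.00363, limma), from -3.22, -3.18 and -3.24 in the MRL to -2.16, -2.49 and -2.25 in the LPR mice.

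Kirrel, which encodes a relative of nephrin in the same junction, was -0.38, -0.26 and -0.32 in the MRL and 0.10, 0.20 and -0.04 in the LPR mice. All LPR mice were above all MRL mice, as was so for 11.7% of all genes. The difference of 0.40 (SE 0.11) fell short of the threshold (adjusted p = 0.0569, limma). A dimmer Kirrel probe, well above background in 1 MRL and 2 LPR mice, differed by 0.21 (adjusted p = 0.668, limma). Trpc6, a calcium channel at the slit diaphragm, differed by -0.28 (SE 0.24, adjusted p = 0.461, limma).

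Of 15 other genes of podocyte cytoskeleton and adhesion, 1 was higher and 0 were lower, the median was -0.03 and 1 had an unadjusted p under 0.05. This was Inf2, an actin-assembling formin, which rose by 0.46 (SE 0.10, adjusted p = 0.0314, limma) from 1.10, 1.09 and 0.99 to 1.60, 1.53 and 1.43. Of 8 podocyte transcription factors, 1 was higher and 0 were lower, with a median of 0.02 and 1 unadjusted p under 0.05.

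Of 22 other podocyte products, 0 were higher and 3 were lower, with a median of -0.19, and 7 had an unadjusted p under 0.05, near the 29.4% of all genes. Enpep, a peptidase that cleaves angiotensin and is abundant in the tubule as well, fell by 0.59 (SE 0.10, adjusted p = 0.00926, limma), from 0.91, 0.81 and 0.86 to 0.31, 0.26 and 0.23. Col4a3, a collagen IV chain of the glomerular basement membrane, fell by 0.55 (SE 0.12, adjusted p = 0.0313, limma). Its dimmer tested probe, well above background in 2 MRL and 1 LPR mice, differed by -1.14 (SE 0.66, adjusted p = 0.287, limma). Dach1, a transcription cofactor that was placed in this list as a podocyte marker, fell by 0.49 (SE 0.12, adjusted p = 0.0447, limma).

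**Figure D5:**
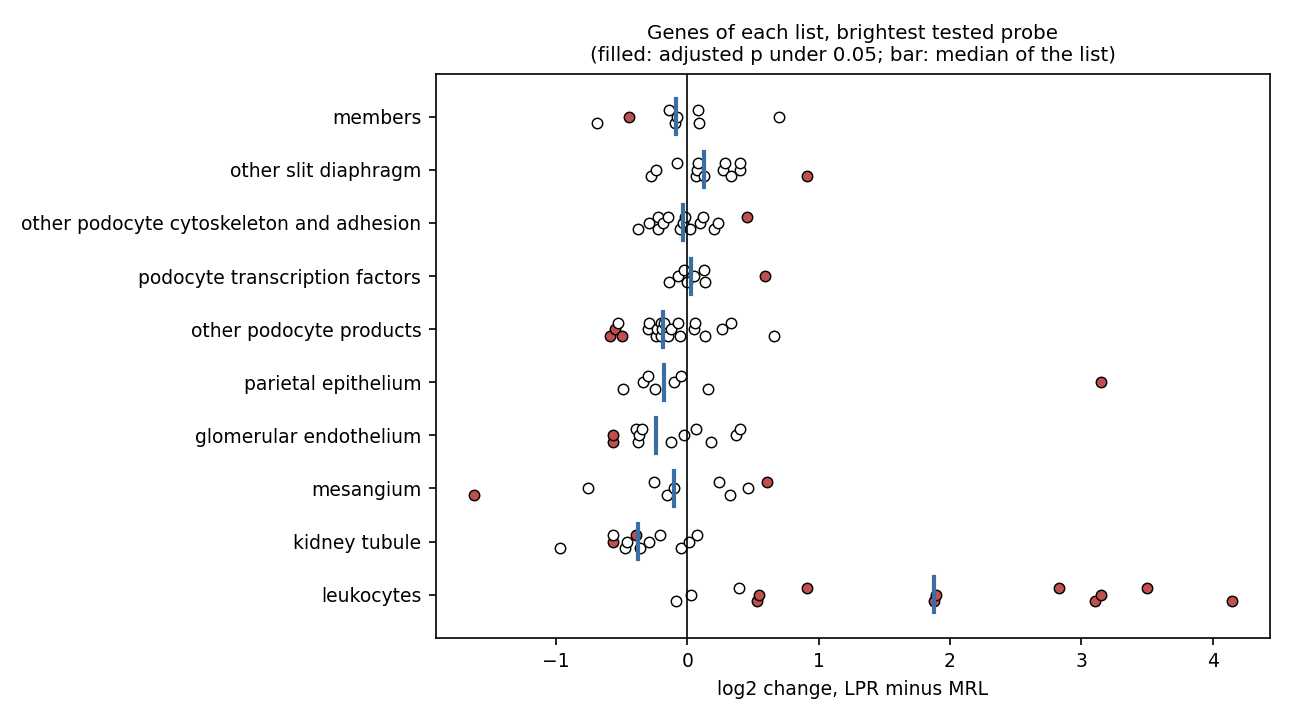
Log2 change (LPR minus MRL) of each gene of 10 lists by its brightest tested probe, filled where the adjusted p was under 0.05, with the median of each list as a bar. The member genes and the 4 other podocyte lists lie around 0, while 10 of 13 leukocyte genes are filled and lie to the right.

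Some markers of other cells moved in the same kidneys, in which 7.12% of all genes were higher and 5.47% lower. Leukocyte genes were higher for 10 of 13, led by Cd3g of the T cell receptor complex with 4.15 (SE 0.12), and the sum of the 13 linear levels was 39.9 to 46.8 times the 75th percentile in MRL and 130 to 138 times in LPR mice. Tubule genes were lower for 2 of 12, and the sum of the 12 was 751 to 784 in MRL and 586 to 630 in LPR mice. Of the lower genes Slc5a2, a glucose transporter of the proximal tubule, fell the more with 0.57. Its dimmer tested probe differed by -0.24 (adjusted p = 0.275, limma). Genes listed under the glomerular endothelium were lower for 2 of 12, led by Kdr, a VEGF receptor, which fell by 0.57. Their sum was 41.8 to 42.1 in MRL and 35.4 to 36.6 in LPR mice. These values do not separate glomerular from other endothelium of the kidney.

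Of 9 genes listed under the mesangium, Acta2 rose by 0.61 and Ren1, which encodes renin, fell by 1.63. The sums of the 9 genes overlapped between the groups. Whole kidney RNA does not tell which cells these transcripts came from, so they are not read as a mesangial change. Of 8 genes of the parietal epithelium, which lines Bowman's capsule, 1 was higher, beside 7.12% of all genes. It was Cd44 with 3.15, an adhesion receptor that leukocytes also carry. The sum of the 8 genes was 36.8 to 41.0 in MRL and 32.3 to 33.6 in LPR mice. The sum over the 8 member genes was 32.2 to 32.8 in MRL and 27.9 to 31.4 in LPR mice. Its largest terms were Actn4 and Cd2ap, which many other cells make. LPR 2, the mouse with the low Cd2ap, gave the 27.9, and LPR 3 gave 28.1. None of the sums was tested or adjusted for the median change of -0.14 over all tested probes. LPR mice lay wholly below MRL mice for 25.6% of all genes. The sums of the other podocyte lists overlapped between the groups, with 29.3 to 31.3 in MRL and 30.98 to 37.8 in LPR mice for the slit diaphragm, 193 to 200 and 192 to 204 for cytoskeleton and adhesion, 5.70 to 5.81 and 5.73 to 6.22 for the transcription factors, and 126 to 129 and 112 to 134 for the other products. The part of the leukocyte, tubule and endothelium differences in the values of the podocyte genes was not tested.

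The genes whose level followed the brighter Nphs1 probe most closely across the 6 arrays, among 23316 genes above background on all of them, were Tdp1, Kank4, Tmem164, Fam163a and Zfp746. Their Pearson correlations were 0.997, 0.991, 0.990, 0.990 and 0.989, over 6 mice that form 2 groups, and they are given as a description. None of the 5 passed the test between the groups (limma), and the largest difference among them was 0.43 for Kank4 (adjusted p = 0.0881, limma).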

How the data were processed

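Cy3-labelled RNA of 6 kidneys was hybridised to 1-colour SurePrint G3 Mouse arrays, and the spot intensity values deposited by the authors came from Agilent Feature Extraction 12.0.3.1, per the submitters' processing notes. The labels name a column kit for the RNA and the study's methods a phenol reagent. The deposited signal table of the series holds the authors' processed signal divided by a constant close to the 75th percentile of each array, and it was used as an alternative. Array flags deposited with the spots gave the other columns used. Here, control and outlier spots were left out, log2 of the processed intensity minus each array's 75th percentile was taken, spots of a probe were averaged, and probes well above background on at least 3 of 6 arrays were tested with limma 3.58.1 in R 4.3.3 (lmFit, eBayes), and p-values were adjusted by Benjamini-Hochberg across every probe in the fit, at 0.05. The number of arrays limits the precision, and 75th percentiles were 706 to 942 with no saturated spot.

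Intervals are 95% intervals of limma's moderated statistic, not adjusted for the number of probes. The brightest tested probe stood for a gene, except where every probe is given. Groups came from the titles, and no label says more of the mice than their strain, sex, age and number. The members, the gene lists and the rule for named genes were chosen with earlier results of these data known. The rule named the 8 members with every probe, a few further podocyte genes, among them Kirrel and Trpc6, up to 3 passing rises and 3 passing falls of each other podocyte list, the largest passing rise and fall of each other cell type list, Fas, and the 5 genes most like Nphs1. Some genes that the rule named are not reported here, though they stay in the counts of the lists. All 135 RefSeq accessions checked matched the current gene symbol. Alternatives changed the background correction, scaling, filter, outlier spots, intensity trend, slide position, pairing, test, choice of probe and mice. The procedure was tested on simulated data. Figures were drawn with matplotlib 3.10.9.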

Additional observations from a re-analysis of the deposited data

How the results depend on the processing

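Groups of 3 mice limit every result here, and the causes of the shifts below were not tested. Podxl (0.00353 to 0.23), Wt1 (-0.23 to -0.07), Cd2ap (-0.99 to -0.07) and Actn4 (-0.13 to -0.05) kept their sign and passed under none of 23 alternatives. Synpo turned to -0.12 with slide column as a block and ranged from -0.0703 to 0.257 when 1 mouse at a time was left out. Plce1 turned to 0.0879 with slide row as a block and ranged from -0.163 to 0.00720 when 1 mouse was left out. The turns came without LPR 1 for Synpo and without LPR 3 for Plce1. Slide column as a block set only LPR 2 against MRL 1 and LPR 3 against MRL 2. Slide row as a block set only LPR 1 against the MRL mice. Magi2 kept its sign and lost its call under 17 alternatives, and Nphs1 kept its sign and gained one under 4.

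As reported, 2606 probes were higher and 2462 lower, 0 member probes and genes were higher and 1 of each lower, and 3 other podocyte genes were higher and 3 lower. Of the values that moved by over 1.5 times, the normexp background gave 4498 lower probes, 1 higher member probe and gene (Nphs1), 2 lower member probes and 5 higher other podocyte genes. Quantile normalization gave 5 higher other podocyte genes. Quantile normalization, median centring, the 75th percentile over probes above background on all arrays, and keeping outlier spots each gave 0 lower member probes and 0 lower member genes. Without the filter on dim probes there were 1093 lower probes, 0 lower member probes and genes and 1 lower other podocyte gene. The filter of above background on all 6 arrays gave 5 higher other podocyte genes. The intensity trend gave 1 higher member probe and gene (Nphs1) and 6 higher other podocyte genes. The slide column block gave 973 lower probes, 0 lower member probes and genes, and 0 higher and 0 lower other podocyte genes. The slide row block gave 1458 higher and 463 lower probes, 0 lower member probes and genes, and 1 higher and 0 lower other podocyte genes. The mean of the tested probes of a gene gave 0 lower member genes.

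The methods' t-test on log2 values with Benjamini-Hochberg adjustment gave 1736 higher and 1386 lower probes, 0 lower member probes and genes and 1 lower other podocyte gene, and on linear values 1444 and 1354, 0, 0 and 1. Without adjustment it gave 7176 lower probes, with 7 higher and 8 lower other podocyte genes, on log2 values, and 7385 lower probes, 2 lower member probes, and 6 higher and 7 lower other podocyte genes, on linear values.

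Replicate numbers were shared between the groups, but deviations of same-numbered mice correlated at 0.115, 0.0203 and 0.00516, so the numbers were not taken to pair mice. With the replicate block there were 1117 lower probes, 1 higher member probe and gene (Nphs1, 0.69, adjusted p = 0.0427, limma), 0 lower member probes and genes and 1 lower other podocyte gene. Leaving out 1 mouse at a time gave 1958 to 2370 higher and 760 to 2269 lower probes, 0 to 1 higher and 0 to 1 lower member probes, 0 to 1 higher and 0 lower member genes, and 2 higher and 1 to 2 lower other podocyte genes.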
